A study of Homo sapiens with 4 samples.

Results

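Zinc finger genes whose symbols begin with ZNF and a number, and which lie on chromosomes 1 to 18 and 20 to 22, were described by their open chromatin. Of 19974 protein-coding genes that RefSeq lists for GRCh38.p14, 255 had such a symbol and position, and 250 more lay on chromosome 19. Symbol and chromosome defined the members, but the group was selected on peak calls and within-list −log10 p ranks of these same libraries, which had been seen to differ by genotype and chromosome. Open chromatin was read from the authors' peak lists of 4 ATAC-seq libraries, an assay in which a transposase cuts accessible DNA, from the human renal carcinoma line 786-O. Both groups carried Cas9 from LentiCas9-Blast virus. The 2 WT control libraries came from negative control cells of WT genotype, and the 2 DEK KO libraries from cells given guide RNAs against DEK through LentiGuide-Puro virus. Per the labels the Cas9-expressing line was a clone and knockout clones followed single cell sorting, but they do not say if replicate libraries represent different clones or cultures, so the spread between them may be technical.

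Most ZNF genes encode proteins with tandem C2H2 zinc fingers, each finger reading a few bases of DNA. A large share of them also carry a KRAB domain, which recruits TRIM28 and, through it, the histone methyltransferase SETDB1 to silence chromatin, above all at transposable elements. Many arose by tandem duplication and stand in clusters. Others without KRAB activate promoters, join corepressor complexes, direct cell lineages or act on RNA. DEK is an abundant nuclear protein that binds DNA, bends it and helps to place histones.

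Each gene was given a window of its span plus 10 kb on each side. Peaks of the 4 lists were merged where they overlapped, and 1067 of the 138467 merged regions fell in the windows, with 54 of them in the windows of several members. A region is named KO-only where the 2 DEK KO lists have it and no control list does, and WT-only in the opposite case. Peaks were ranked by −log10 p inside their own list and given a percentile, from 0 for the weakest to 100 for the strongest, so that levels are ranks within 1 library and not amounts. Since the group was selected on these measures, all values below are descriptions without tests. An exact permutation test of 2 against 2 libraries could in any case not give a p below 0.333.

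On chromosomes 1 to 22 and X the control lists had 89563 peaks (replicate 1) and 90409 (replicate 2), and the DEK KO lists 102760 and 99508. The member windows held 767 and 770 peaks in the controls and 808 and 818 in DEK KO. That was 0.856% and 0.852% of the control lists and 0.786% and 0.822% of the DEK KO lists. The windows thus held more peaks in both DEK KO libraries but a smaller part of their longer lists. The depth of the libraries is unknown, since the lists give no read counts. The region over the boundary of higher coordinate of DEK itself (chr6:18263024-18265209) was called in all 4 lists. Its percentiles were 11.9 and 24.1 in the controls and 39.5 and 57.6 in DEK KO. Accessibility there does not check the knockout labels.

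The promoters of members that show the main patterns are printed from RefSeq (GRCh38.p14), from 250 bases before to 50 bases after the start, 5′ to 3′ on the gene's strand. Among the 255 members, 209 had an entry. Capitals mark matches to 8 short motifs on either strand: the GC box GGGCGG, the CCAAT box CCAAT, the ETS motif CCGGAAG, the E-box CACGTG, the AP-1 motif TGANTCA, the NRF1 core GCATGCG, the YY1 motif ATGGCGG and the CRE motif TGACGTC. ZNF131, a transcription factor with a BTB domain (chr5:43121211-43121510, plus strand), had the start region with the highest mean percentile. ZNF679 (chr7:64228224-64228523, plus strand) had no region in its window and no CG dinucleotide in its promoter. ZNF124 (chr1:247171971-247172270, minus strand) had a start region called in the controls alone. ZNF276 (chr16:89720752-89721051, plus strand) and ZNF280D (chr15:56733460-56733759, minus strand) had the largest rises in percentile, and ZNF32 (chr10:43648832-43649131, minus strand) and ZNF713 (chr7:55887206-55887505, plus strand) the largest falls, among members with a printed promoter.
ZNF131: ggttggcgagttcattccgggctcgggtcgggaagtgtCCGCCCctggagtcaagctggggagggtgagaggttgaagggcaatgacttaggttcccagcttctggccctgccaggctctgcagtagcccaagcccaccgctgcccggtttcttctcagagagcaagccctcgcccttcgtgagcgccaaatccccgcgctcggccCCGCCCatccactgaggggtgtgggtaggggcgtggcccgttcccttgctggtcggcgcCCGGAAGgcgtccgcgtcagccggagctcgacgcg
ZNF679: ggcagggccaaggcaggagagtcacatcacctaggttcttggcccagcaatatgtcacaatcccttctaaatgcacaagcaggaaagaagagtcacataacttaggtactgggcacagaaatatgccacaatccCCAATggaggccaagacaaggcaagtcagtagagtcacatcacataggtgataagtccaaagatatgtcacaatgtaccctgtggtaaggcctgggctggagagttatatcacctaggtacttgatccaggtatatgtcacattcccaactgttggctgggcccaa
ZNF124: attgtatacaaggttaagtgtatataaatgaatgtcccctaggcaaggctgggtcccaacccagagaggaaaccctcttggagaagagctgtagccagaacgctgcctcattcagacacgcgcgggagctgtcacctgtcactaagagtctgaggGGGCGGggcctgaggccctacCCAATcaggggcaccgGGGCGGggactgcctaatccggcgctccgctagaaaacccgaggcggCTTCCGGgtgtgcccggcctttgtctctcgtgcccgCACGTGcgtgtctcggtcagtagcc
ZNF276: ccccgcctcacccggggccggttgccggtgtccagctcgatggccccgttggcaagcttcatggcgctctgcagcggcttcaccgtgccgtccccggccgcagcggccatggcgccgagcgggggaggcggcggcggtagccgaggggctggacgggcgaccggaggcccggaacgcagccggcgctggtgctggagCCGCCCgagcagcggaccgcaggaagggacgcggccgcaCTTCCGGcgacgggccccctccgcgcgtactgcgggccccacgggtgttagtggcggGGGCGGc
ZNF280D: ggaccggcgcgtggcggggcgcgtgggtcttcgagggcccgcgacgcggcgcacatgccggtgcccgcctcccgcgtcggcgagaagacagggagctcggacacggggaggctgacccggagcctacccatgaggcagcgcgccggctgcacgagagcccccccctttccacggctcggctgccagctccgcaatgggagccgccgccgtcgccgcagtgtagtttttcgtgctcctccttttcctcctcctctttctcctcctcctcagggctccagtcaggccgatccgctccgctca
ZNF32: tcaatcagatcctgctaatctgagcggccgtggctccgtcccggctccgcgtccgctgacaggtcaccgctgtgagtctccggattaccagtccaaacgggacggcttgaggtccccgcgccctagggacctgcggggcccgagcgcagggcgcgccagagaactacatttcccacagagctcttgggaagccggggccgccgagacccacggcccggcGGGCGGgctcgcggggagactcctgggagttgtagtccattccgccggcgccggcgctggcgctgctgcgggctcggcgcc
ZNF713: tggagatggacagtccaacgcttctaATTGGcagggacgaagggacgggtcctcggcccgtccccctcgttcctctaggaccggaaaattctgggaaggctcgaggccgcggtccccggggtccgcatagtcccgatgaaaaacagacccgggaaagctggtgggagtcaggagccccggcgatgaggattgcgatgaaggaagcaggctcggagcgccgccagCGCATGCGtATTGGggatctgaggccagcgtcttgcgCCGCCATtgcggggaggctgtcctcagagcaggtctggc

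ZNF131 had 26 CG dinucleotides. ZNF679 had 0 and is shown for that, since it was picked as a member without any region and with the fewest CG. ZNF131 held 2 GC boxes and an ETS match, and the only match in ZNF679 was a CCAAT box. ZNF124 had 19 CG dinucleotides, 2 GC boxes, a CCAAT box, an ETS match and an E-box, and 142 of its 300 bases lay in the region called only in the controls. ZNF276 had 44 CG dinucleotides, 2 GC boxes and an ETS match, whereas ZNF280D had 37 and no match to any of the 8 motifs. ZNF32 had 36 and a single GC box. ZNF713, known for a fragile site with an expandable CGG repeat, had 26, with 2 CCAAT boxes, a YY1 match and 2 overlapping NRF1 core matches. A GC box was thus present in 1 of the printed rises and 1 of the printed falls, and absent from the other of each.

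Across the 209 member promoters the ETS motif was the one furthest from its share elsewhere. It occurred in 73 of them (34.9%), against 14.2% of 15812 protein-coding promoters, and in 45.7% of the 219 promoters of ZNF genes on chromosome 19. Among promoters whose start was called in all 4 lists the shares were 37.0% for members and 21.0% for all genes. The CCAAT box was found in 44.0% of member promoters and 36.3% of all, the NRF1 core in 9.57% and 5.14%, and the CRE motif in 8.13% and 4.59%. GC boxes (60.3% and 58.5%) and the YY1 motif (9.09% and 7.63%) stood closer together. E-boxes (6.22% and 8.87%) and AP-1 motifs (3.83% and 5.76%) were less frequent in members. By start region, the ETS share was 34.4% among the 32 members whose percentile was higher in both DEK KO lists and 29.6% among the 27 whose percentile was lower.

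The CG dinucleotide, which is dense in promoters that stay open in most cell types, differed with the calls. Member promoters with a start called in all 4 lists had a median of 25 per window (n = 162). Those without any start region had 15.5 (n = 36), and those called in 1 to 3 lists had 28 (n = 11). Over all protein-coding genes the medians were 26 with a start called in all 4 lists and 7 without a region, so the median of the members without a start region was above that of all such genes.

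**Figure D1:**
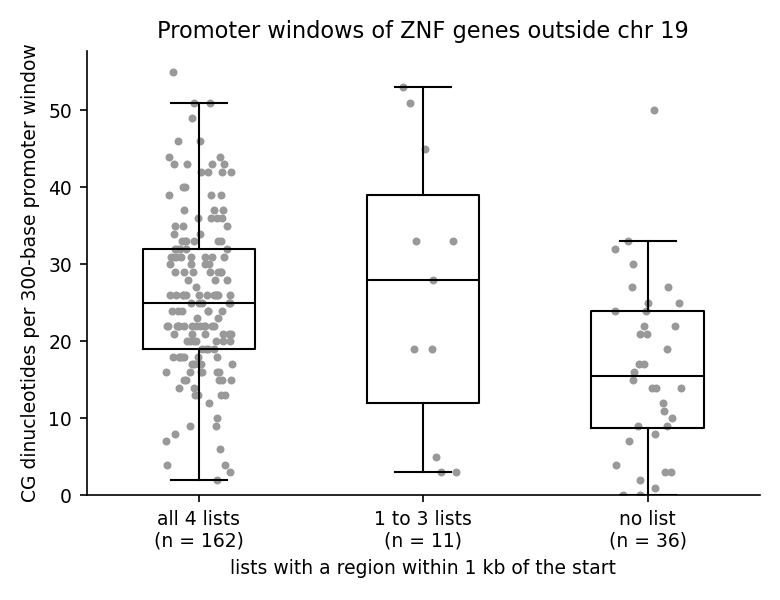
CG dinucleotides per promoter window (y axis, count in 300 bases) of the 209 members with a RefSeq promoter, by the number of lists with a region within 1 kb of the start (x axis). Points are genes, boxes span the quartiles with the median as a line and whiskers reach the farthest point within 1.5 box heights. The median is 25 for starts called in all 4 lists and 15.5 for starts called in none.

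A region within 1 kb of the start of transcription was found for 209 of the 255 members (82.0%), against 65.4% of all protein-coding genes and 83.6% of ZNF genes on chromosome 19. For 46 members the table gave no start and either gene end was used. The start region was called in all 4 lists for 192 members, in 1 to 3 lists for 17 and in none for 46. The median percentile of the 192 was 86.3 and 87.1 in WT control replicates 1 and 2 and 86.5 and 87.3 in DEK KO replicates 1 and 2. These levels lay within 1 point of each other across the 4 libraries, and all 4 were above the medians of all protein-coding start regions, 82.3, 83.9, 83.4 and 84.5. In 55 of the 192 the percentile was over 90 in every list, and in 4 it was under 50 in every list, namely ZNF205, ZNF747, ZNF804A and ZNF445.

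Members without any region lay mostly on a few chromosomes. No region was called in any list within the whole window of 20 members, of which 6 lay on chromosome 3, 6 on chromosome 7 and 4 on chromosome 5. On chromosome 3 these were ZNF501, ZNF502, ZNF660, ZNF662, ZNF717 and ZNF80. On chromosome 7 they were ZNF479, ZNF716, ZNF722, ZNF727, ZNF735 and ZNF679, on both sides of the centromere. On chromosome 5 they were ZNF300, and ZNF454, ZNF879 and ZNF354C near the end of the long arm. The other 4 were ZNF732, ZNF883, ZNF705D, which has near-identical copies and is uncertain, and ZNF750, a regulator of epidermal differentiation. For reads that match several places the treatment is among the steps not given in the sources used here, and values of near-identical members are uncertain.

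Between genotypes, start regions moved little. The difference between the mean percentile in DEK KO and in the controls had a median of 0.42 over the 192 members and of 0.40 over the 11503 start regions of all protein-coding genes. It was under 5 points in either direction for 144 members and over 10 points for 19. The percentile was higher in both DEK KO lists than in both control lists for 38 members (19.8%, background 22.9%) and lower for 29 (15.1%, background 16.1%). The libraries of the 2 groups overlapped for the other 125. With every list cut to its 89563 strongest peaks, the length of the shortest, 25 were higher (13.0%) and 44 lower (22.9%), with a median of -0.88. All protein-coding genes then had 14.7% higher and 24.3% lower, with a median of -0.89. The small positive median thus turned negative with lists of equal length, and it was also -0.136 without WT control replicate 1.

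**Figure D2:**
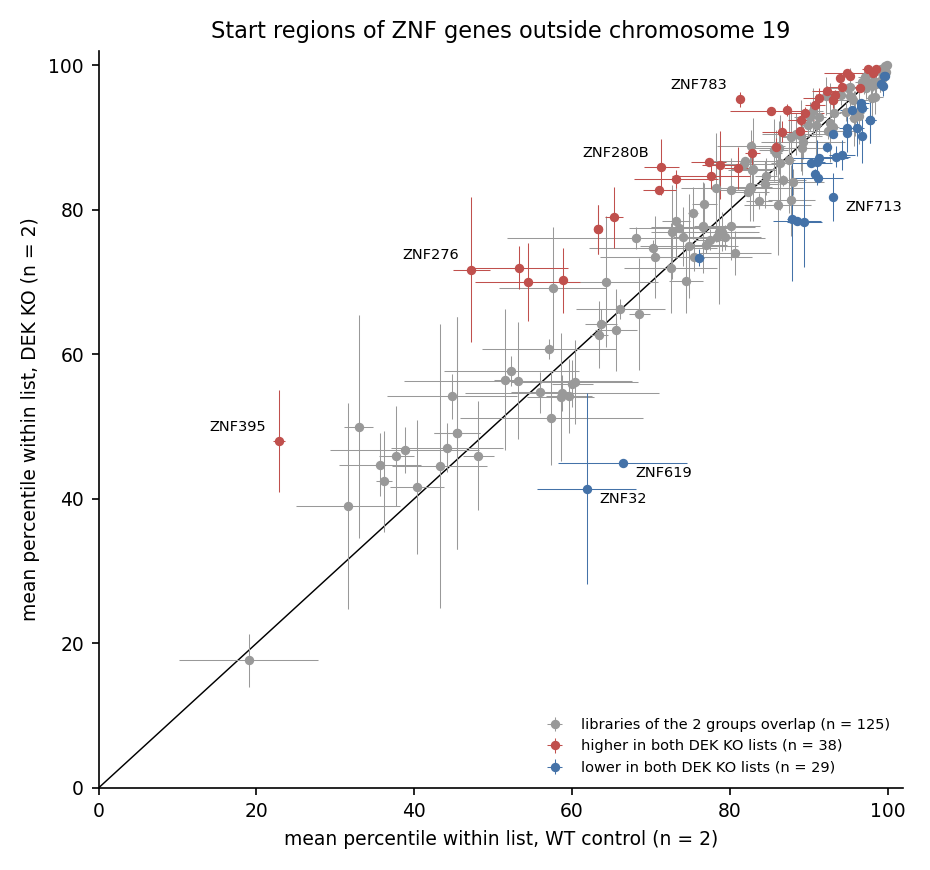
Mean percentile of −log10 p at the start regions of 192 members in the 2 WT control lists (x axis) and the 2 DEK KO lists (y axis), with bars from the lower to the higher replicate. Most points lie near the diagonal, 38 have both DEK KO values above both controls (red) and 29 have both below (blue).

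The 6 largest rises among members whose groups did not overlap were at ZNF395, ZNF276, ZNF280D, ZNF287, ZNF280B and ZNF783. ZNF395, a gene known for high expression in clear cell renal carcinoma, had percentiles of 22.1 and 23.6 in the controls and 40.9 and 55.0 in DEK KO at its end of higher coordinate (chr8:28386194-28386959). Both control values were thus low in their lists, and the 2 DEK KO values were near the middle of theirs. ZNF276 (chr16:89720474-89721766) had 49.6 and 44.9 in the controls and 61.6 and 81.8 in DEK KO, and its region is also the start of VPS9D1. ZNF280D (chr15:56732205-56733744) had 47.0 and 59.6 against 74.9 and 69.0. ZNF287 (chr17:16568775-16569468) had 47.7 and 61.1 against 75.3 and 64.6. In the last 2 genes the closest libraries of the groups lay within 10 points. There and at ZNF276 the replicates of a group differed by at least as much as the groups did at their nearest. ZNF280B (chr22:22508396-22509134) had 73.5 and 69.1 against 82.0 and 89.8. ZNF783 (chr7:149261414-149262325) had 81.6 and 81.0 against 94.2 and 96.3, the tightest replicates of the 6. At equal list length 5 of the 6 kept both DEK KO lists above both controls, and at ZNF287 the groups then overlapped.

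The 6 largest falls were at ZNF619, ZNF32, ZNF713, ZNF281, ZNF692 and ZNF800. ZNF619 (chr3:40476704-40477887) had percentiles of 58.2 and 74.6 in the controls and 45.2 and 44.8 in DEK KO. ZNF32 (chr10:43648522-43649300) had 55.6 and 68.1 against 28.1 and 54.7, so that WT control replicate 1 and DEK KO replicate 2 lay within 1 point. ZNF713 (chr7:55886875-55887676) had 93.0 and 93.2 against 78.4 and 85.1. Only start regions called in all 4 lists entered this ranking, so all 6 were called in every library. ZNF281, a factor that works with MYC and regulates pluripotency genes (chr1:200409280-200410551), had 91.7 and 87.2 against 72.1 and 84.4. ZNF692 (chr1:248857823-248859531) had 85.5 and 91.6 against 78.1 and 78.9. ZNF800 (chr7:127391376-127393269) had 87.3 and 88.4 against 70.2 and 87.2, and only DEK KO replicate 1 stood apart there. DEK KO replicate 1 was the lowest library at each of the 6 but ZNF619. In fold over background, DEK KO replicate 2 was above both controls at ZNF713 (12.4 against 11.4 and 10.8) and ZNF692 (6.38 against 5.48 and 5.93). So it was at ZNF281 (11.9 against 11.8 and 9.92) and ZNF800 (7.96 against 7.56 and 7.61), but not at ZNF619 or ZNF32. That library also had the highest median fold over member starts, 9.83. Ranked by fold, the differences shrank to -4.35 at ZNF713 and -2.19 at ZNF692, and grew to -14.0 at ZNF800 and -29.8 at ZNF619. All 6 remained lower in both DEK KO lists at equal list length. That setting removes weak peaks mainly from the longer DEK KO lists, which lowers the percentiles of those kept. It could therefore not undo a fall.

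**Figure D3:**
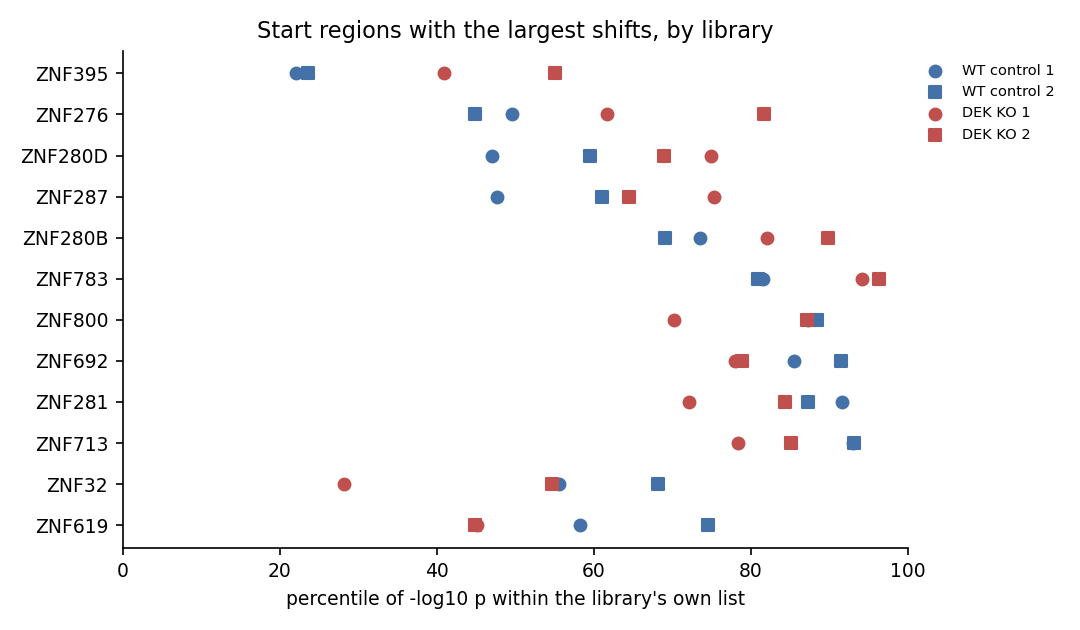
Percentile of −log10 p within each library's own list (x axis) for the 12 members with the largest shifts at the start (y axis), with WT control in blue, DEK KO in red, replicate 1 as circles and replicate 2 as squares. ZNF783 has both controls near 81 and both DEK KO values above 94, while ZNF800 has 3 libraries between 87.2 and 88.4 and DEK KO replicate 1 at 70.2.

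Start regions called in 1 genotype were rare. A KO-only start region was found for 1 of the 255 members (background 0.761%) and a WT-only one for 2 (background 0.461%). ZNF683, which encodes the lymphocyte factor Hobit, had a KO-only region inside the gene (chr1:26371847-26372503), at percentiles 41.8 and 33.3 with folds over background of 6.17 and 5.87. ZNF124 had its WT-only region over the start (chr1:247172129-247172413), at percentiles 37.2 and 37.9 with folds of 6.33 and 5.82. ZNF316 had a WT-only region 0.512 kb after its start (chr7:6637830-6638130), at 29.0 and 19.5 with folds of 3.92 and 3.07. All 3 were called in the weaker part of their lists, and that of ZNF316 was lost when −log10 q of at least 5 was required.

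Over the whole windows, 54 of 1067 regions (5.06%) belonged to the KO-only class and 15 (1.41%) to the WT-only class. In the windows of all protein-coding genes 5.46% of regions were KO-only and 2.6% WT-only, and over all merged regions 6.26% and 2.57%. The KO-only share of the members was thus near the background. KO-only regions occurred at 48 members (18.8% of 255, background 20.5%), WT-only regions at 15 (5.88%, background 11%), and 7 members had both. The DEK KO lists are longer. With every list cut to the same length there were 33 KO-only and 33 WT-only regions, and 33 of the 54 and all 15 of the original regions were in the same class. A shorter list gains no call, and the control lists were cut little or not at all. WT-only regions could thus hardly leave their class. In the windows of all protein-coding genes this setting gave 3614 KO-only and 3226 WT-only of 81488 regions. KO-only regions then made up 50% of the one-genotype regions of the members and 52.8% of those of all protein-coding genes, against 78.3% and 67.7% with the lists as deposited. Leaving out a library changes what a class requires. Counts were 75 KO-only and 78 WT-only without WT control replicate 1, the same without replicate 2, 138 and 47 without DEK KO replicate 1, and 124 and 42 without DEK KO replicate 2. In the same order of settings the KO-only part of the one-genotype regions was 49.0%, 49.0%, 74.6% and 74.7% for members and 49.5%, 52.1%, 70.4% and 75.9% for all protein-coding genes.

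Most one-genotype regions lay away from starts, for members and for all genes. Inside the gene spans there were 33 KO-only and 12 WT-only regions among 571, in the flanks 17 and 0 among 228, at the members' own starts 2 and 3 among 224, and at starts of other genes 2 and 0 among 44. Own starts include either gene end where RefSeq gave no start. The WT-only region counted there for ZNF703 lay beside its end of higher coordinate and may not be at its start. Over all protein-coding genes 6.08% of regions inside spans, 6.31% of those in flanks and 1.67% of those at starts were KO-only, and 3.01%, 2.13% and 1.08% were WT-only, so the lower shares at starts were general. Regions at own starts were called in all 4 lists in 86.6% of cases, those inside the spans in 43.3%. Most were weak. The lower of the 2 percentiles had a median of 14.7 for KO-only regions (range 0.539 to 76.3) and 16.1 for WT-only regions (4.03 to 40.5), and 3 KO-only regions exceeded the 50th percentile in both lists.

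Those 3 lay at ZNF385A, ZNF483 and ZNF385B. The region inside ZNF385A, which encodes a cofactor of p53 also called HZF, was the strongest (chr12:54383058-54383521), where percentiles were 76.3 and 77.4 and folds 5.95 and 6.88. That of ZNF483 lay in its flank, 57.7 kb from the start (chr9:111582845-111583984), at 63.8 and 61.7 with folds of 8.42 and 9.81. That inside ZNF385B, a relative of ZNF385A (chr2:179837302-179837800), stood at 56.5 and 61.3 with folds of 7.89 and 10.0. The replicates agreed within 5 points at all 3. The next KO-only regions lay in the flank of ZNF92 (lower percentile 43.6), inside ZNF664-RFLNA, a read-through gene (39.9 and 36.4 at 2 regions), inside ZNF638, which encodes an RNA-binding protein that also silences unintegrated retroviral DNA (39.4), and inside ZNF385D (39.4).

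The strongest WT-only region lay inside ZNF462, which encodes a chromatin protein needed in development (chr9:106920818-106921623), with percentiles of 40.5 and 43.7 and folds of 3.63 and 3.64 in WT control replicates 1 and 2. After that of ZNF124 came one inside ZNF827, whose protein brings the NuRD complex to telomeres (chr4:145805497-145806015), at 26.9 and 47.2. The others of the 8 strongest lay at ZNF385D, ZNF316, ZNF704, ZNF385B and ZNF423, a partner of EBF factors in fat cell precursors, with lower percentiles from 16.1 to 22.4. ZNF385B, ZNF385D, ZNF423, ZNF804A, ZNF462, ZNF277 and ZNF362 each had regions of both classes. Of the 16 strongest one-genotype regions, all 8 KO-only and 6 WT-only regions kept their class with −log10 q of at least 5, the exceptions being ZNF316 and ZNF704.

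The most regions were found at ZNF385B (34), ZNF407 (25), ZNF664-RFLNA (24), and ZNF423 and ZNF804B (19 each). ZNF407, ZNF385B and ZNF804B are long genes, while the median member is 24.0 kb long with 3 regions in its window. ZNF385B and ZNF423 had no region at the start given by RefSeq, and their regions lay elsewhere in the window.

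Among the 575 regions called in all 4 lists, 152 had a higher percentile in both DEK KO lists (26.4%) and 95 a lower one (16.5%). In the windows of all protein-coding genes the shares were 29.7% and 19%. Both shares of the members were somewhat lower than this background. Among the ordered regions 61.5% were higher in DEK KO with the lists as deposited and 43.4% at equal list length, where 105 were higher and 137 lower. In the windows of all protein-coding genes the same setting gave 21.0% higher and 27.9% lower regions, so the balance turned there as well.

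Some regions away from the starts differed more than any start region in the comparison above. The following were chosen after their values were seen. The largest rise lay inside ZNF407, 11.4 kb from its start (chr18:74609266-74609958), with percentiles of 40.8 and 40.9 in the controls and 95.0 and 93.6 in DEK KO. Its folds were 6.30 and 5.95 in the controls and 11.4 and 14.1 in DEK KO. A region 3.85 kb from the start of ZNF267 (chr16:31868691-31869958) stood at 26.4 and 30.8 against 78.3 and 81.1. A region 1.73 kb from the start of ZNF117 (chr7:64992770-64993624) stood at 41.1 and 39.8 against 87.2 and 91.9. In all 3 the gap between the groups was over 40 points and the replicates lay within 5 points of each other. A second region near the start of ZNF804A, 0.362 kb away (chr2:184596935-184598167), stood at 12.2 and 20.8 against 55.0 and 57.1, while its strongest start region had overlapping groups.

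The 3 largest falls lay inside ZNF385B and in the flank of ZNF367. At chr2:179636188-179637118 the percentiles were 85.5 and 82.0 in the controls and 56.1 and 6.22 in DEK KO, the largest of all, and at chr2:179579877-179581861 they were 95.9 and 91.2 against 65.0 and 35.6. The second largest, in the flank of ZNF367 (chr9:96376937-96378223), stood at 65.0 and 58.6 against 24.7 and 7.70. In each of them both DEK KO values were below both controls, and DEK KO replicate 2 was the lowest library. ZNF385B thus had regions that fell in rank, 1 that was KO-only and 1 that was WT-only inside the same gene.

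By chromosome, KO-only regions numbered 5 and WT-only regions 4 of 95 at the 21 members on chromosome 1, and 5 and 3 of 136 at the 35 members on chromosome 7. Chromosomes 10, 12 and 15 had 6 of 71, 6 of 56 and 5 of 48 KO-only and 0 WT-only regions, and chromosome 16 (30 genes) had 6 and 1 of 117. Chromosome 8 had 0 and 2 of 50. At equal list length chromosome 1 had 3 KO-only and 7 WT-only regions, chromosome 7 had 2 and 5, chromosome 8 had 0 and 4, and chromosome 12 had 6 and 2. In windows of all protein-coding genes the KO-only share was 4.32% on chromosome 1, 4.63% on 7, 5.49% on 8, 5.34% on 10, 5.37% on 12 and 6.28% on 16, with chromosome 15 between the last pair. The WT-only share was 3.51% on chromosome 1, 2.97% on 7, 2.79% on 8, 2.66% on 10, 2.51% on 12, 2.05% on 15 and 1.40% on 16. With so few regions per chromosome, the member counts only describe where they lay. Without chromosomes 1 and 7, a choice made after seeing the data, 44 KO-only and 8 WT-only regions were left.

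**Figure D4:**
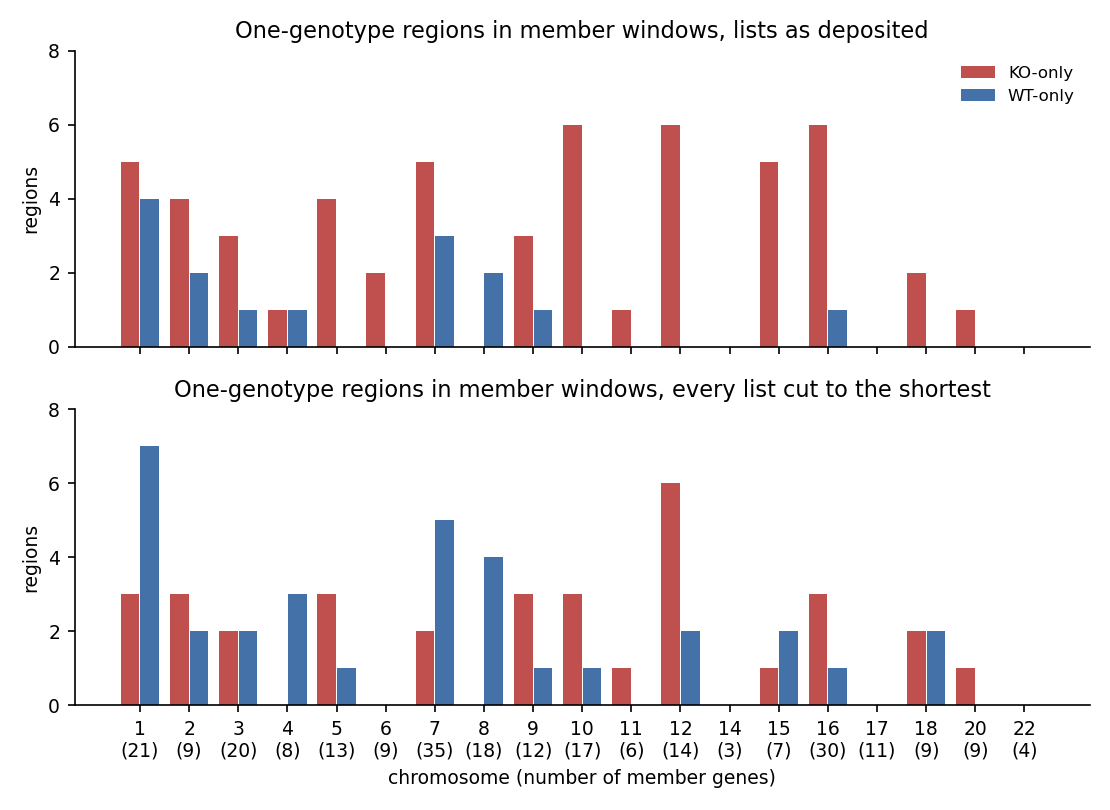
Number of KO-only (red) and WT-only (blue) regions in the member windows (y axis) per chromosome (x axis, with the number of member genes), for the lists as deposited (top) and for lists cut to the length of the shortest (bottom). KO-only regions number 54 and WT-only regions 15 at the top, and 33 each at the bottom.

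Ranks also differed by chromosome, for members and for all genes. On chromosome 1, of 43 regions called in all 4 lists 4 were higher and 16 lower in both DEK KO lists (9.30% and 37.2%), where windows of all protein-coding genes on that chromosome had 20.1% and 28.5%. At the starts of the chromosome 1 members 0 of 16 were higher and 9 lower (56.2%), and over all protein-coding genes of the chromosome 33.9% of start regions were lower. On chromosome 20, 9 of 21 were higher and 0 lower, beside 38.1% and 12.8% for all genes. On chromosome 16, 19 of 74 were higher and 8 lower, beside 35.0% and 13.6% for all genes.

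Chromosome 7 had a larger share of higher regions among members than among all genes. Of 67 member regions there 28 were higher (41.8%) and 14 lower (20.9%), against 28.8% and 25.0% in the windows of all its protein-coding genes. At equal list length the members had 37.1% higher and 21.0% lower, and all genes 21.5% and 31.8%. The difference was not tested. Of the 28 higher regions, 9 and 12 lay in 2 clusters, described next.

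**Figure D5:**
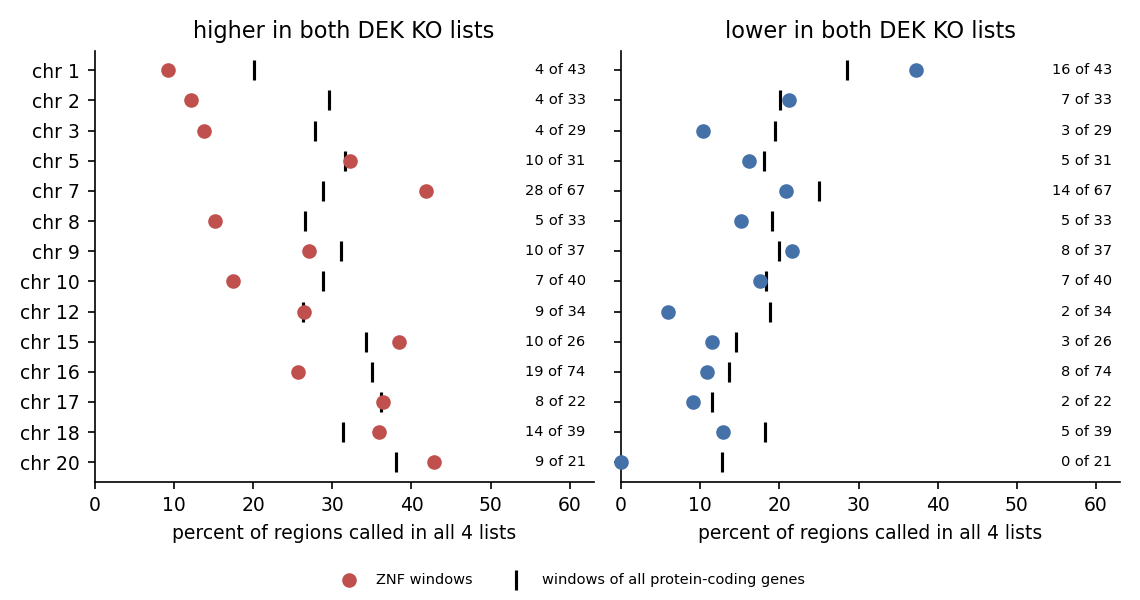
Percent of regions called in all 4 lists (x axis) whose percentile was higher (left, red) or lower (right, blue) in both DEK KO lists, by chromosome (y axis), for chromosomes with at least 20 such regions in the member windows. Points are ZNF windows, with their counts at the right, and bars are windows of all protein-coding genes. Chromosome 7 has 28 of 67 regions higher, and chromosome 1 has 4 of 43.

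Clusters of at least 4 members with gaps of at most 500 kb numbered 13 and held 89 members. The background for their counts is 29.7% higher and 19% lower regions over the windows of all protein-coding genes. For starts it is 22.9% and 16.1%. Clusters were not counted at equal list length. The cluster from ZNF722 to ZNF92 beside the centromere of chromosome 7 (11 members) was open in part. No start region was found for 6 of its members, and the 5 others had median percentiles of 98.4 and 98.6 in the controls and 98.7 and 99.1 in DEK KO. Of its 16 regions called in all lists 9 were higher and 1 lower in both DEK KO lists. In the cluster from ZNF786 to ZNF862 near the end of the long arm of chromosome 7 (10 members), 12 of 22 were higher and 5 lower, with median start percentiles of 93.0, 94.0, 91.7 and 95.6 in the order WT control replicates 1 and 2 and DEK KO replicates 1 and 2. At these starts 3 of 8 were higher and 2 lower, a smaller surplus than over the whole cluster.

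The clusters on chromosome 16 were mostly open. From ZNF205 to ZNF597 (7 members) all 7 starts were called in all lists, 3 were higher and 0 lower, and 5 of 12 regions were higher and 0 lower. From ZNF48 to ZNF267 (13 members), 9 of 25 regions were higher and 2 lower. The 7 members from ZNF605 to ZNF268 at the end of chromosome 12, among them ZNF10, the gene of KOX1 in which the KRAB domain was defined, also had all starts called, with 3 higher and 0 lower and a median difference of 2.09. ZNF10 and ZNF891 share 1 of the higher start regions, which is counted for each gene and gives the median. Over this whole cluster 2 of 7 regions were higher and 1 lower.

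In the cluster from ZNF789 to ZNF3 on the long arm of chromosome 7 (4 members), 3 of 10 regions were higher and 0 lower. Several other clusters had no more higher than lower regions. From ZNF695 to ZNF496 on chromosome 1 (5 members), 1 of 8 regions was higher and 3 lower, and each one-genotype class had 2. From ZNF595 to ZNF721 at the start of chromosome 4 (5 members), 1 of 6 was higher and 3 lower. On chromosome 10, 2 of 11 were higher and 4 lower from ZNF248 to ZNF37A (4 members). From ZNF487 to ZNF32 on the same chromosome (4 members), 0 of 6 were higher and 1 lower. The median start difference there was -5.39, over 3 starts. From ZNF251 to ZNF16 on chromosome 8 (6 members), 2 of 14 were higher and 2 lower. The median start difference, with either gene end taken as the start, was -4.09. At these starts DEK KO replicate 1 had a median of 75.5 and the other 3 libraries between 86.1 and 86.3. The cluster from ZNF445 to ZNF501 on the short arm of chromosome 3 (8 members, 1 of them a read-through gene) had few calls. It had 7 regions in all, with 0 of 4 ordered by genotype. The start was called in all lists for 4 members, and 4 had no start region, the read-through gene among them. Among the members from ZNF354A to ZNF354C on chromosome 5, 3 of 5 had no start region. Of the 2 regions called in all lists there, 0 were higher and 1 lower.

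By role, promoter-binding activators had their starts called in all lists for 9 of 9 members, with 2 higher, 1 lower and a median difference of 0.75. Over all protein-coding genes 22.9% of such starts were higher and 16.1% lower, which is the background for each role below. With so few genes per role the counts only describe them. Roles were not counted at equal list length. The one lower was ZNF281, given above. ZNF76, a relative of ZNF143, had 84.1 and 89.1 in the controls and 92.2 and 89.4 in DEK KO. ZNF410, an activator of CHD4, had 74.9 and 71.4 against 83.6 and 73.3, where the groups overlapped. The other one higher, named after its values were seen, was ZNF384, at 88.1 and 89.8 against 90.6 and 91.2.

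Chromatin and corepressor factors had 10 of 14 starts called in all lists, 1 higher and 1 lower, with a median difference of 0.61. ZNF512 was the one higher, at 76.5 and 81.0 against 81.4 and 90.9. ZNF445, a guardian of imprinting, had 30.5 and 40.8 against 49.1 and 40.3, and ZNF518B, a partner of G9a, had 38.2 and 25.1 against 53.3 and 24.7. In both the groups overlapped, because DEK KO replicate 1 alone was high. The one lower, named after its values were seen, was ZNF687, a partner of ZNF592 and ZNF532, at 99.5 and 99.9 against 98.2 and 98.9.

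Lineage factors had the smallest share of called starts, with 6 of 12 starts called in all lists and none of the 6 ordered by genotype. Their windows held 125 regions, 10 of them KO-only (8%, beside 5.46% in all windows) and 5 WT-only (4%, beside 2.6%). The start of ZNF804A, a gene tied to psychiatric disease, had 35.1 and 37.2 in the controls and 49.4 and 35.4 in DEK KO. No RefSeq start was available for ZNF521 and ZNF385A, so their values are from a gene end that may not be the start. ZNF521 had 74.7 and 76.0 against 83.1 and 76.0 at its end of higher coordinate. ZNF385A had 65.6 and 48.5 against 62.2 and 59.4 at its end of lower coordinate.

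Factors acting on RNA, ribosomes or ubiquitin had all 11 starts called, 1 higher and 1 lower, with a median difference of -1.24. ZNF330, a nucleolar protein, was the one lower, at 94.8 and 94.9 in the controls and 93.2 and 88.0 in DEK KO. ZNF207, a spindle assembly factor that was named after its values were seen, was the one higher, at 91.9 and 87.2 against 94.2 and 92.6. ZNF365 had 36.5 and 53.0 against 57.3 and 51.1, and ZNF598, the ubiquitin ligase of collided ribosomes, had 78.4 and 75.2 against 77.9 and 83.6, both with overlapping groups.

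The corepressor machinery that KRAB zinc finger proteins use is not part of the family and was listed beside it. Of its 18 genes 17 had a start called in all lists, 3 of them higher, 2 lower and 12 not ordered. TRIM28, SETDB1, CBX3, CBX5 and MORC2 were named after their values were seen. TRIM28, the scaffold, had 95.8 and 98.4 in the controls and 93.1 and 96.4 in DEK KO, and SETDB1 had 82.7 and 81.3 against 82.5 and 82.7, so the groups overlapped at both. EHMT1, a histone methyltransferase, was higher at 63.8 and 54.2 against 68.7 and 75.0, whereas its partner EHMT2 had 39.4 and 50.6 against 44.1 and 21.5 with overlapping groups. Among the HP1 genes, CBX1 was higher at 83.5 and 86.3 against 91.1 and 96.2, and CBX3 was lower at 94.1 and 95.2 against 89.5 and 84.9. CBX5 counted as higher at 88.3 and 88.1 against 88.3 and 92.0. Its groups nearly touched, at 88.29 in WT control replicate 1 and 88.34 in DEK KO replicate 1. MORC2, a partner of the HUSH silencing complex, was lower at 79.4 and 76.2 against 70.6 and 74.2.

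ZNF genes on chromosome 19 served as the nearest comparison. Their windows held 436 regions for 250 genes, of which 69.3% were called in all lists, against 53.9% of the member regions. Of the 436 regions 24 were KO-only (5.50%) and 2 WT-only (0.459%). Of those called in all lists 29.5% were higher and 13.2% lower, and the median start difference was 0.70. The differences between the families were not tested.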

How the data were processed

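The 4 ATAC-seq libraries of 786-O cells, 2 per genotype, were each represented by 1 peak list. Per the submitters' processing notes the tools included Bowtie2 2.2.5, ChIPseeker 1.32.1, cutadapt 1.18, DiffBind 3.6.5, MACS2 2.2.7.1, Picard 2.26.9, deepTools 3.5.1 and SAMtools 1.7, with builds GRCh38 and hg38. Settings, any shift of reads for the transposase and read depth are not given in the sources used here. In the labels the extraction text describes RNA, so how the ATAC libraries were made is not given either. The deposited columns are a score (10 times −log10 q), the fold of pileup over background, the −log10 p and −log10 q of each peak, and the summit offset. They are the authors' values for 1 list each and were used only to rank, describe or filter peaks within it.

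Peaks on chromosomes 1 to 22 and X were merged at an overlap of 1 bp and ranked by −log10 p. A region's value in a list was that of its strongest peak. The start region was the strongest within 1 kb of the RefSeq start or, without one, of either gene end. Regions in several windows were counted once. Python 3.11.15, numpy 2.4.6 and pandas 2.3.3 were used. Class assignment was checked on simulated data. Members, lists, clusters and tests were chosen with earlier results of these data known. Genes were named, with the exceptions stated, by the rank of their one-genotype regions (8 per direction), shift at the start (6 per direction), number of regions (4), role list (3 each) or absence of regions. Planned classes by protein sequence were not made. Alternatives were list length, −log10 q, merge overlap, window, start distance, rank by fold and leaving out each library.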

Additional observations from a re-analysis of the deposited data

How the results depend on the processing

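No paired analysis was possible because no result comes from a test, so that the replicate numbers shared by the groups entered no fit. Counts of KO-only, WT-only, higher and lower regions were 117, 33, 282 and 169 with a flank of 50 kb. KO-only and WT-only regions numbered 33 each with lists of equal length, KO-only regions 25 with −log10 q of at least 5, and WT-only regions 8 without chromosomes 1 and 7. Leaving out 1 library gave 75 to 138 KO-only, 42 to 78 WT-only, 229 to 262 higher and 160 to 199 lower regions, since fewer lists had to concur. The median start difference of 0.42 became -0.88 at equal length, -0.0037 with −log10 q of at least 5 (cause not tested), and ran from -0.136 to 0.711 when a library was left out. It is smaller than the SD of the library medians, 0.553. For the 12 members named for their start shift no alternative turned the direction. They were picked for groups that did not overlap, so leaving out a library could hardly turn it. The other start distances and merge overlap left their values unchanged. Of 120 values 7 moved beyond the replicate spread. The fall at ZNF800 from -9.17 to -0.676 without DEK KO replicate 1 counts as within that spread. These counts thus say little about how firm the shifts are. Lists hold only peaks past the caller's threshold, so a missing call does not show closed chromatin.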
